A study of Mus musculus with 30 samples.

Results

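CTCF and RAD21 binding was examined around 9 genes that pattern the limb and the lateral plate mesoderm: Tbx5, Tbx4, Tbx2, Tbx3, Prrx1, Hand2, Pitx1, Grem1 and Lmx1b. Every peak of every library whose summit lay inside the mm10 span of one of these genes or within 20 kb of it was taken, which gave 929 of the 1352462 peak entries of the series. Of these, 636 came from CTCF libraries and 293 from RAD21 libraries.

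The data were CTCF and RAD21 ChIPmentation profiles, a chromatin immunoprecipitation in which the transposase Tn5 adds the sequencing adapters on the beads, from the trunk of E10.5 mouse embryos (strain B6CBAF1). Homozygous embryos of 6 alleles, in which CTCF binding sites (CBS) of the HoxD cluster on chromosome 2 are mutated in cis, were used. They and WT littermates came from crosses of heterozygous parents, and each embryo was dissociated on its own. All WT libraries of an antibody served as the control for every allele, with no term for litter. The 14 CTCF libraries came from 3 WT embryos, 3 embryos of Del(CBS1), 1 of Del(CBS1-2), 2 of Del(CBS1-3), 2 of Del(CBS1-4), 2 of Del(CBS1-5) and 1 of Del(CBS2), a name such as Del(CBS1-3) being read as sites 1, 2 and 3. The 16 RAD21 libraries came from 4 WT embryos, 3 embryos of Del(CBS1), 1 of Del(CBS2) and 2 of each other allele. The trunk was taken whole, so each library averages over many cell types, and a stronger peak in more cells cannot be told apart from stronger binding in each cell. Peak lists hold no RNA, so the tissue could not be checked against marker genes. None of the 9 genes is in HoxD, although Lmx1b and Grem1 lie on the same chromosome.

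CTCF is a zinc finger protein that binds a long DNA motif and stops loop extrusion by cohesin, the ring complex of which RAD21 is a subunit. Cohesin therefore accumulates at many CTCF sites, and pairs of such sites delimit chromatin loops and domains. Hox proteins position the limbs along the trunk, and several of the 9 genes act in that program under the control of distant enhancers. Tbx5 starts the forelimb, Tbx4 and Pitx1 act in the hindlimb, Tbx2 and Tbx3 are T-box repressors of the limb margins, Prrx1 is a homeobox factor of the limb mesenchyme, Hand2 is a basic helix-loop-helix factor of the posterior limb upstream of Shh, Grem1 is a BMP antagonist, and Lmx1b is the LIM-homeobox factor of dorsal limb identity.

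Of the 9 genes, 5 (Tbx4, Prrx1, Hand2, Grem1 and Lmx1b) had a RefSeq promoter sequence of 300 bases (GRCm38.p6, 250 bases before to 50 after the annotated start). Peaks overlapped the promoters of Prrx1 and Grem1, and none overlapped those of Tbx4, Hand2 and Lmx1b. The nearest promoter to the strongest RAD21 site of the whole set belongs to Tbx3os2, a long non-coding RNA gene beside Tbx3. The promoters of Prrx1 and Grem1 are shown because peaks overlapped them, and that of Tbx3os2 because of its RAD21 site. Promoters of other genes within the windows are not described here. The 3 promoters lie on the minus strand at chr5:119691169-119691468 (Tbx3os2), chr1:163313601-163313900 (Prrx1) and chr2:113758599-113758898 (Grem1). Capitals mark a match to part of the CTCF motif (CC, any 3 bases, AG, any 2 bases, GGC), which was searched on both strands.

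Tbx3os2: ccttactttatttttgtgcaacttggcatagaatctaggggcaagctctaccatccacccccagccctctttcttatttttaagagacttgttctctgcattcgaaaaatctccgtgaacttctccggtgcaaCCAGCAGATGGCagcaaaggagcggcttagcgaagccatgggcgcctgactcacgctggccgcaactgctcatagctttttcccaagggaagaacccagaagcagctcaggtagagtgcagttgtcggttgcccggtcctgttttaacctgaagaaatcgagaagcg

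Prrx1: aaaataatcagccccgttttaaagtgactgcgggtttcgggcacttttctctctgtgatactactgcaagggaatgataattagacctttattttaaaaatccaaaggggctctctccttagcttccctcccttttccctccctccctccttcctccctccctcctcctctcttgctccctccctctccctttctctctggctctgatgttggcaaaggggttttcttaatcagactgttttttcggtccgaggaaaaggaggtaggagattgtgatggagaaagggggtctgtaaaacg

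Grem1: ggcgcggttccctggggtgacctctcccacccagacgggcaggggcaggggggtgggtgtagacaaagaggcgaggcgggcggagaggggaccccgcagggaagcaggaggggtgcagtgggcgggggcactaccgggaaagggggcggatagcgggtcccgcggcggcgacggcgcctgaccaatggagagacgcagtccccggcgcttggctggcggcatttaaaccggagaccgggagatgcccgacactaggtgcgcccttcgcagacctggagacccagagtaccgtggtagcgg

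The Tbx3os2 promoter held 1 match, CCAGCAGATGGC, on the gene's strand at chr5:119691324-119691335, 6 bp from the median CTCF summit. Peaks overlapped this promoter in 14 of 14 CTCF and 16 of 16 RAD21 lists. It was chosen for its RAD21 site, unlike the other 2, so its overlap cannot be set against theirs. The Prrx1 promoter held no match and was overlapped by peaks in 7 of 14 CTCF and 3 of 16 RAD21 lists, and the Grem1 promoter held no match and was overlapped in 4 of 14 CTCF lists and 1 of 16 RAD21 lists. Over all 32851 promoters of the table, 8.609% held the letters; the share was 44.17% of the 1209 promoters that contain a CTCF site found in every library and 7.25% of the 31642 others. A match is a description of these letters and not a measured binding site.

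The lists varied in length, from 40011 to 88323 peaks for CTCF and from 16676 to 48102 for RAD21; they hold no read counts, so sequencing depth was unknown. Near the 9 genes, a CTCF list had 33 to 62 peaks and a RAD21 list 10 to 27. Summits of all libraries of an antibody that lay within 150 bp of each other were linked into 1 site. A library's value at a site is a percentile: the place of the authors' fold enrichment of its peak among the sites that every library of the antibody has, from near 0 for the weakest to 100 for the strongest, and 0 where the library has no peak. CTCF and RAD21 percentiles are ranks over different sets of sites (31132 and 13134). The genotype labels were checked at HoxD, where 1 CTCF site each followed exactly the mutations of CBS1 (peak in 4 of 4 libraries that keep it and 0 of 10 that lack it), CBS3 (8 of 8 and 0 of 6), CBS4 (10 of 10 and 0 of 4) and CBS5 (12 of 12 and 0 of 2); no site followed CBS2 exactly. No 2 libraries shared identical entries, although CTCF in Del(CBS1-5) replicate 1 and WT replicate 3 was more alike across sites (r = 0.945) than any 2 libraries of the same genotype (up to 0.892).

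The 9 genes together had 61 CTCF sites with a peak in at least 2 libraries, of which 23 (37.7%) had one in every library, beside 37.12% of the 83862 such sites of the genome. RAD21 had 28 sites, 9 of them (32.14%) in every library, beside 26.55% of 49464. A further 32 CTCF and 23 RAD21 sites were listed in a single library. The sites were unevenly spread over the genes. Tbx2 had 11 CTCF sites, or 22.3 per 100 kb of span and flanks, which ranked at percentile 99.8 among 21883 protein-coding genes, whose median was 5.55. Hand2 (8 sites, percentile 98.7) and Tbx3 (8 sites, percentile 95.2) were also dense in CTCF, and Lmx1b had the largest number, 14 sites over a longer window (percentile 87.1). At the other end Tbx4, next to Tbx2 on chromosome 11, had 1 CTCF site and no RAD21 site in at least 2 libraries. Tbx5 (7 sites), Grem1 (3) and Prrx1 (4) ranked at percentiles 49.1, 53.0 and 34.3, and Pitx1 (5) at 79.1. For RAD21, Tbx2 and Tbx3 had 5 sites each (percentiles 96.3 and 94.1), and Lmx1b had 7.

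**Figure D1:**
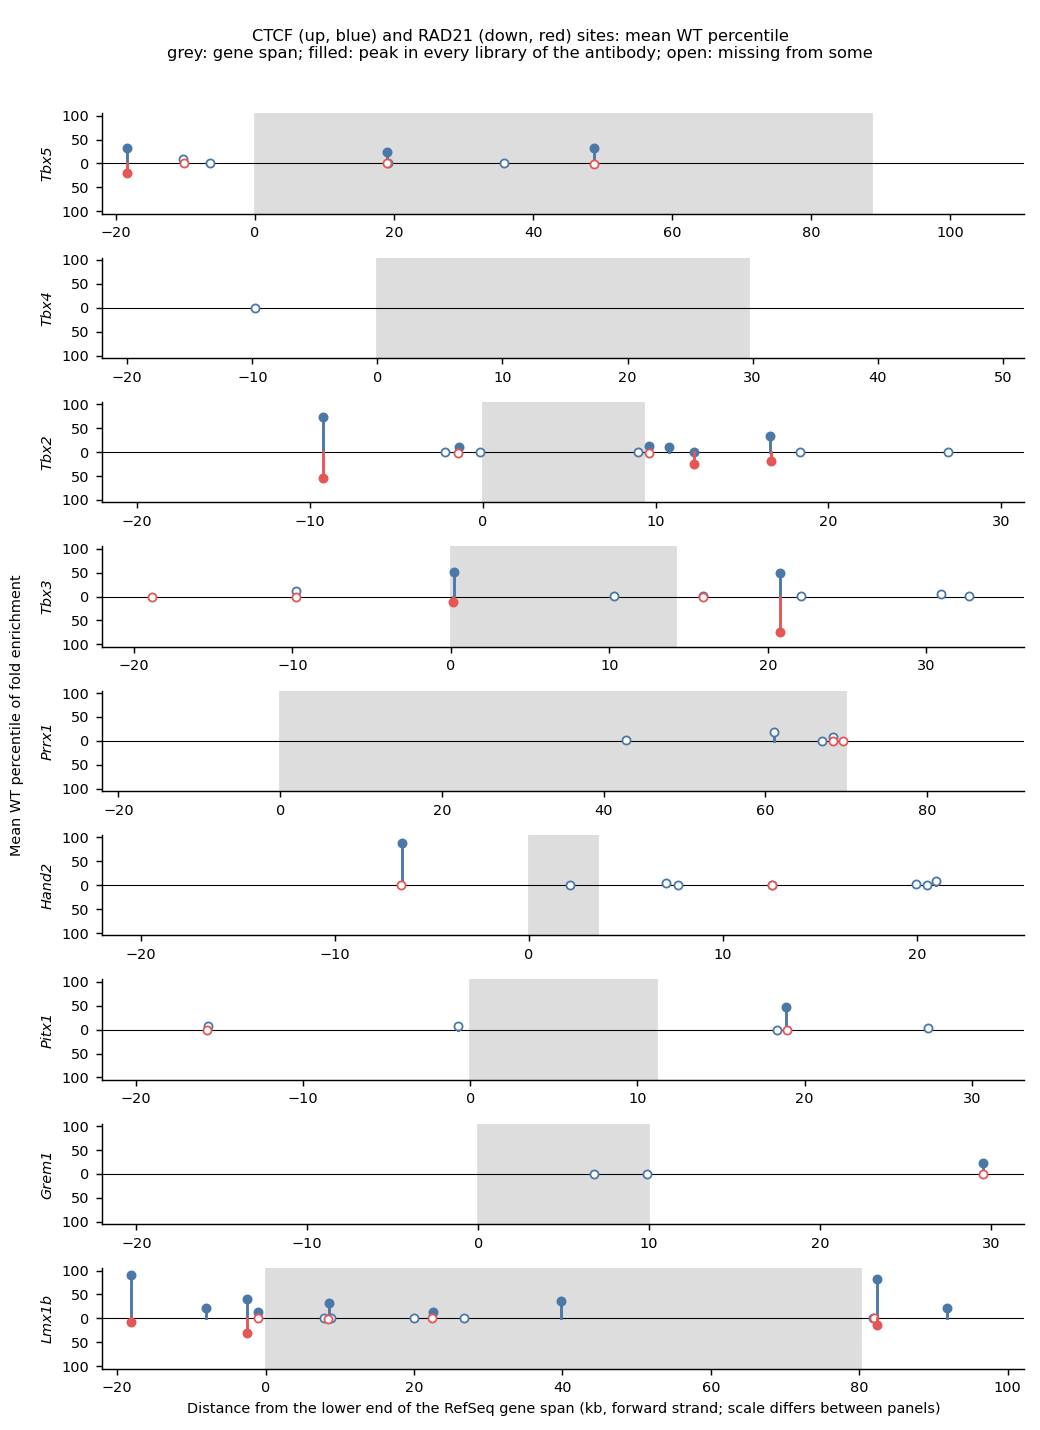
CTCF (upward, blue) and RAD21 (downward, red) sites with a peak in at least 2 libraries, by distance in kb from the lower end of each gene's RefSeq span (grey), with height the mean WT percentile of fold enrichment (3 CTCF and 4 RAD21 libraries). Filled points are found in every library of the antibody; the tallest CTCF sites are those of Lmx1b (91.3) and Hand2 (87.5), and the tallest RAD21 site is beyond the upper end of Tbx3 (74.7).

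Among the forelimb genes, Tbx5 (chr5:119796514-119885220) had 3 CTCF sites in every library, with mean WT percentiles of 24.9 to 32.5. The one below the span, at chr5:119778015, stood at percentiles of 20.5, 34.6 and 39.4 in WT replicates 1 to 3 and between 20.4 and 46.0 in the 11 mutant libraries (median 33.7). It was the only Tbx5 site with RAD21 in all 16 libraries, at a mean WT percentile of 20.0 ± 5.88 (SD, n = 4). Inside the gene, the CTCF site at chr5:119845288 stood at 47.0, 27.1 and 23.2 in WT and at 4.64 to 63.3 in mutants, and RAD21 peaks lay there in 6 of 16 libraries. The other intragenic site, at chr5:119815442, is also inside the annotated Gm5563; it stood at 24.9 ± 9.13 (SD, n = 3) in WT and had RAD21 in 2 of 16 libraries. WT and mutant values overlapped at all 3 sites.

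Tbx2 (chr11:85832615-85841948) was flanked on both sides. Its strongest CTCF site, chr11:85823379, lies 9236 bp below the span inside the annotated Bcas3 and 2610027K06Rik, and stood at 72.8, 78.6 and 69.5 in WT, with a mutant median of 73.4. RAD21 was found there in 16 of 16 libraries, at 84.0, 33.2, 44.5 and 54.1 in WT replicates 1 to 4 and 29.6 to 70.5 in mutants, with an SD of 21.8 over the 4 WT and 15.6 over the 12 mutant libraries. Beyond the upper end, 4 more CTCF sites in every library followed within 7308 bp of the span: chr11:85842221, 85843391, 85844816 and 85849256, at mean WT percentiles of 12.2, 11.2, 1.19 and 34.0. The third of these, chr11:85844816, was by fold enrichment among the weakest CTCF sites present in all libraries (0.658 to 1.62 over the 3 WT libraries). Its -log10 q was 33.6, 26.9 and 77.4 in WT replicates 1 to 3, so it was weak in fold over local background and not near the limit of calling. RAD21 was present at this site in all 16 libraries at a mean WT percentile of 25.5 ± 8.99 (SD, n = 4). Sites of like CTCF strength were matched on the fold percentile alone. Of 771 CTCF sites of the genome within 2.5 percentile points of the same CTCF level, 12 (1.56%) had a WT RAD21 percentile as high, and their median was 0.0171. The neighbouring site chr11:85843391, stronger in CTCF, had no RAD21 peak in any of 16 libraries, as did 353 of 1490 sites of like CTCF strength (23.7%).

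Tbx3 (chr5:119670534-119684724) had 2 CTCF sites in every library, and RAD21 in every library at both. The first, chr5:119670754, lies 220 bp inside the lower end of the span, where Tbx3os1 is annotated as well. CTCF stood there at 71.2, 53.5 and 32.2 in WT and at 9.74 to 75.3 in mutants, and RAD21 at 11.7 ± 6.57 (SD, n = 4) in WT. The second, chr5:119691318, is the site in the Tbx3os2 promoter printed above, 6594 bp beyond the upper end. CTCF stood there at 61.4, 50.8 and 36.5 in WT and at 29.7 to 66.4 in mutants, near the middle of all sites. RAD21 at the same place stood at 86.2, 70.8, 66.1 and 75.5 in WT replicates 1 to 4, with a fold enrichment of 10.1 to 13.9. The mutant libraries had 43.1 at the lowest, 74.5 at the median and 87.4 at the highest, and overlapped WT, so the site was above the middle of the RAD21 ranks in 15 of 16 libraries. Of 1670 CTCF sites of like strength, 32 (1.92%) had a WT RAD21 percentile as high, against a median of 5.62. The other CTCF sites of Tbx3 were absent from some libraries, and the strongest of these, chr5:119660745, averaged 11.6 in WT.

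The hindlimb genes had few constant sites. Tbx4 (chr11:85886367-85916097) had a single CTCF site, chr11:85876598, 9769 bp below the span, with a peak in 4 of 14 libraries and a highest percentile of 6.45 (Del(CBS2)). Pitx1 (chr13:55825044-55836190) had 1 CTCF site in every library, chr13:55843928, 7738 bp above the span, at 44.2, 49.1 and 50.3 in WT and 19.6 to 57.2 in mutants. RAD21 peaks occurred there in 3 of 16 libraries, none of them WT, whereas CTCF sites of like strength had RAD21 in a median of 14 libraries; 221 of 1658 (13.3%) had as few. A weak CTCF site 736 bp below the Pitx1 span, chr13:55824308, was found in 11 of 14 libraries, at 17.7, 1.12 and 2.44 in WT.

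Prrx1 (chr1:163245119-163315145) had no CTCF or RAD21 site in every library. Its strongest CTCF site, chr1:163306153 inside the gene, stood at 15.1, 21.0 and 18.8 in WT. It was absent from 4 mutant libraries, Del(CBS1) replicate 2, Del(CBS1-3) replicate 2 and both Del(CBS1-4), and reached 25.6 in Del(CBS1-5) replicate 2, so it was present in both libraries of the allele with the most mutated sites. The 4 libraries without it had lists of 40011 to 55899 peaks, and 3 libraries with lists of 44550 to 55109 peaks had it, at 9.51 to 15.2; the part of list length in this was not tested. The exact 2-sided permutation test of the difference between mutant and WT gave p = 0.2005 here. At the promoter printed above, the CTCF site chr1:163313537 lay 64 bp outside and was listed in 8 of 14 libraries.

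Hand2 (chr8:57320983-57324517) had 1 of the strongest CTCF sites of the set, with almost no RAD21 at that site. The site, chr8:57314445, lies 6538 bp below the span inside Hand2os1, a long non-coding RNA gene upstream of Hand2. CTCF stood there at 90.5, 85.7 and 86.2 in WT, a fold enrichment of 12.8 to 17.5, and at 68.7 to 91.3 (median 81.6) in mutants. RAD21 peaks were listed there in 5 of 16 libraries: WT replicate 2 at a percentile of 0.122, Del(CBS1) replicate 1 at 22.1 and 3 other mutant libraries at 0.259 to 0.449. No RAD21 peak with a -log10 q of at least 10 covered the CTCF summit in any library. This filter was chosen after seeing the data and does not set Hand2 apart. It also left 0 of 16 at several other sites, among them chr2:113778235 at Grem1, which had RAD21 in 10 of 16 without it. Of 1566 CTCF sites of like strength, 19 (1.21%) had RAD21 in as few libraries, and the median of such sites was 16 of 16. The other 7 CTCF sites of Hand2 with a peak in at least 2 libraries were weak and absent from some libraries, with mean WT percentiles of at most 8.96. Over the whole Hand2 window, RAD21 had 2 sites in at least 2 libraries, a density at percentile 66.0 among protein-coding genes.

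**Figure D2:**
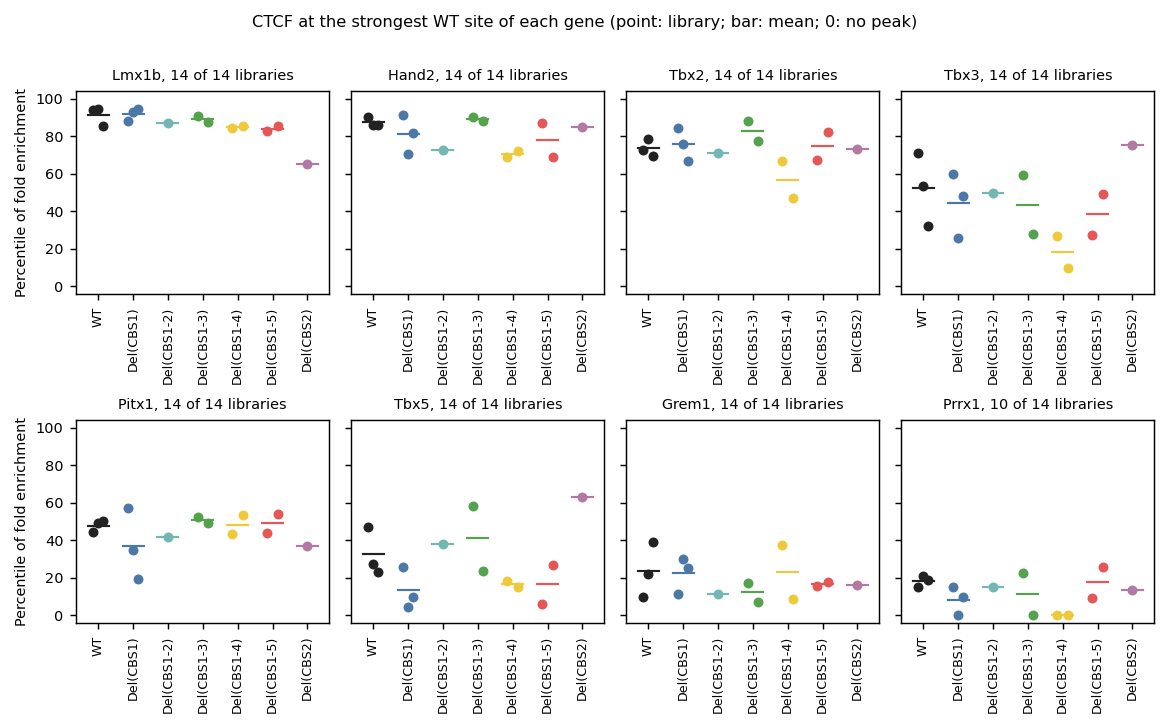
CTCF percentile of fold enrichment (vertical axis, 0 where a library has no peak) in each library (points) by genotype (horizontal axis; bar: mean) at the strongest WT site of 8 genes. The lowest of 14 values is 65.0 at Lmx1b and 68.7 at Hand2, and in all 8 panels the WT values lie within the range of the mutant values or overlap it.

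Grem1 (chr2:113748675-113758648) had 1 CTCF site in every library, chr2:113778235, 19587 bp above the span and inside Scg5. It stood at 9.66, 22.2 and 39.1 in WT and at 7.32 to 37.6 in mutants, and RAD21 was found there in 10 of 16 libraries at a mean WT percentile of 0.712 ± 0.917 (SD, n = 4). A weak CTCF site 103 bp inside the upper end of the span, where the gene starts, chr2:113758545, was listed in no WT library and in 4 mutant libraries: Del(CBS1-2), both Del(CBS1-5) and Del(CBS2). Its percentiles there were 0.0482 to 2.25, at the low end of what the caller listed, and the exact permutation test gave p = 0.725. Those 4 libraries had lists of 58335 to 88323 peaks. Of the libraries without the site, WT replicate 3 and Del(CBS1-3) replicate 1 had 75027 and 72244 peaks, and the rest had 40011 to 57271. The part of list length was not tested.

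Lmx1b (chr2:33560965-33641208) held 9 of the 23 CTCF sites found in every library, on both sides and inside the gene. The strongest, chr2:33542879, lies 18086 bp below the span inside the annotated Gm33642 and stood at 94.0, 94.6 and 85.2 in WT. The mutant libraries had 65.0 at the lowest (Del(CBS2)), 87.1 at the median and 94.4 at the highest. The second, chr2:33643295, lies 2087 bp above the span, beyond the start of the gene, inside C130021I20Rik; it stood at 96.7, 90.4 and 62.4 in WT and 58.0 to 90.5 in mutants. RAD21 was found at both in all 16 libraries but ranked low: mean WT percentiles of 7.27 ± 10.3 and 13.6 ± 8.87 (SD, n = 4), where CTCF sites of like strength had medians of 67.6 and 52.3. Of those like sites, 90.6% and 81.0% had a RAD21 percentile as high or higher. The reverse held at the weaker site chr2:33558494, 2471 bp below the span, where CTCF stood at 41.4 ± 12.9 (SD, n = 3) and RAD21 at 43.9, 35.0, 28.5 and 15.4 in WT. There 16.5% of sites of like strength had as much RAD21. Of the other 6 CTCF sites of Lmx1b in every library, 3 (chr2:33552887, 33600711 and 33652827) had RAD21 in no library, as did 20.6%, 11.8% and 19.1% of sites of like strength. The site chr2:33552887 was strong in WT replicate 1 alone (51.7, against 5.12 and 5.17), so its WT mean of 20.7 rests on that embryo.

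Over the whole set, RAD21 was found in at least 2 libraries at 25 of the 61 CTCF sites with a peak in at least 2 libraries (41.0%), beside 45.81% of 83862 such sites of the genome. It was found in at least 2 libraries at 19 of the 23 CTCF sites present in every library (82.6%), beside 87.4% of 31132 such sites of the genome, and in all 16 libraries at 9 of 23 (39.1%, beside 41.6%). The other 4 of 23 (17.4%) had RAD21 in no library, beside 9.383% of the genome's sites, and the median number of RAD21 libraries was 13, beside 15. The sites chr11:85844816, chr5:119691318 and chr8:57314445 are the extremes of these 23, looked at in both directions. The shares of like sites given for them above are not adjusted for that choice.

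**Figure D3:**
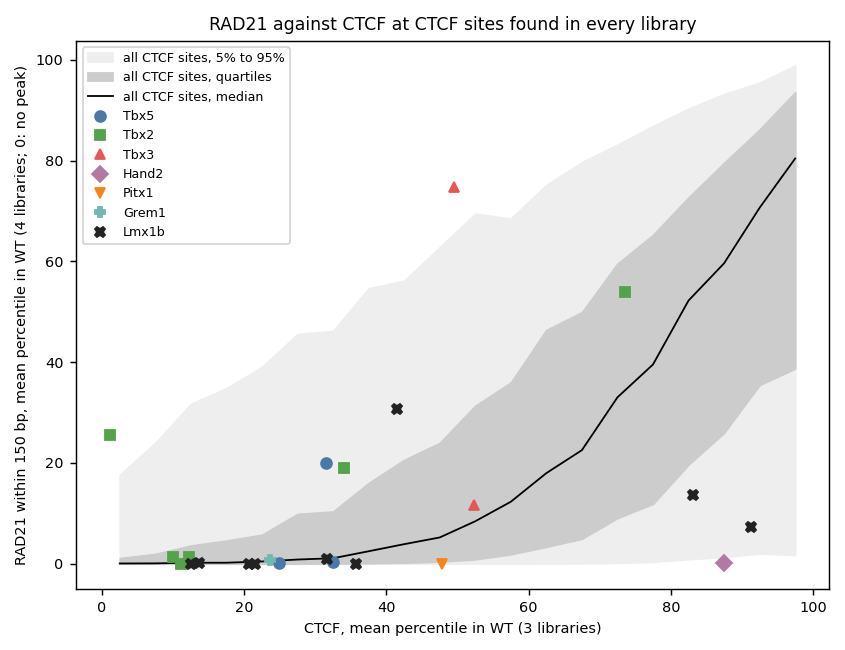
Mean WT percentile of RAD21 within 150 bp (vertical axis, 4 libraries, 0 where none has a peak) against that of CTCF (horizontal axis, 3 libraries) at the 23 CTCF sites found in every library, by gene. The line is the median of all such sites of the genome in steps of CTCF level, with quartiles (dark) and the 5% to 95% range (light); the Tbx3os2 promoter site (49.6, 74.7) and a Tbx2 site (1.19, 25.5) lie above the light band and the Hand2 site (87.5, 0.0305) lies just below it. By its definition the light band leaves out up to 5% of the genome's sites on each side.

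**Figure D4:**
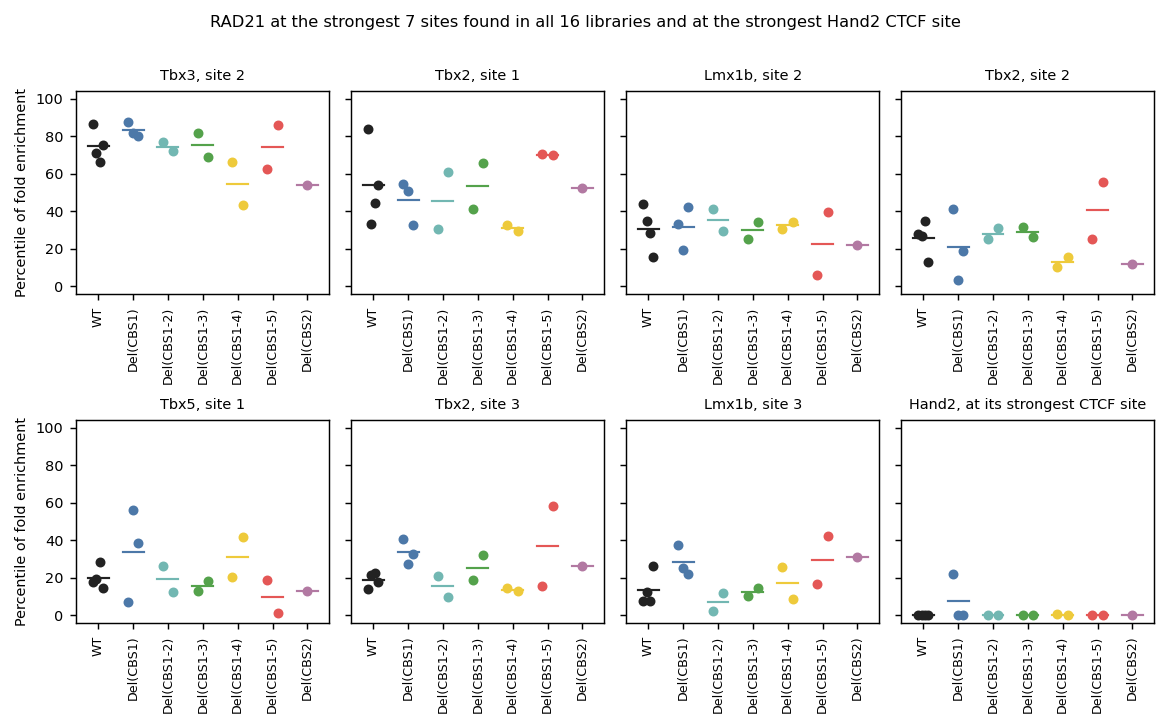
RAD21 percentile of fold enrichment (vertical axis) in each library (points) by genotype (horizontal axis; bar: mean) at the 7 strongest sites found in all 16 libraries, numbered along the forward strand among the sites of that gene in every library, and at the strongest Hand2 CTCF site. The Tbx3 site 2, in the Tbx3os2 promoter, is at 43.1 or above in every library, and the Hand2 site is at 0 in 11 of 16.

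The alleles test whether loss of HoxD sites is accompanied by a change at these distant genes. For the sites found in every library, ranks within a library were turned into normal scores (1 unit is 1 SD across sites) and compared with limma over all such sites, with Benjamini-Hochberg adjustment. Between all mutant and WT libraries, 0 of the 23 CTCF sites near the 9 genes passed an adjusted p of 0.05, beside 0% of the 31132 sites tested; at an unadjusted p of 0.05 there were 0 of 23, beside 1.84%. For RAD21 0 of 9 passed, beside 0% of 13134, and 0 of 9 at an unadjusted p of 0.05, beside 2.76%. The largest estimates for CTCF were -0.41 ± 0.28 (SE) at Lmx1b chr2:33643295 and 0.40 ± 0.23 at Tbx2 chr11:85844816, both with a limma adjusted p of 0.9999. The Lmx1b site was below the WT mean of the normal scores in 8 of 11 mutant libraries and the Tbx2 site in 1 of 11. The 95% confidence intervals of the 23 CTCF changes ran from -0.99 at the lowest bound to 0.87 at the highest, and those of the 9 RAD21 changes from -0.67 to 0.84, and they bound the sizes of change that these libraries allow. The median CTCF change was -0.10 (8 of 23 above 0), beside 0.0010 over all sites, and the median RAD21 change was -0.04 (4 of 9 above 0), beside -0.0046 over all sites. Sites measured in the same libraries are not independent, and the counts above 0 were not tested.

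**Figure D5:**
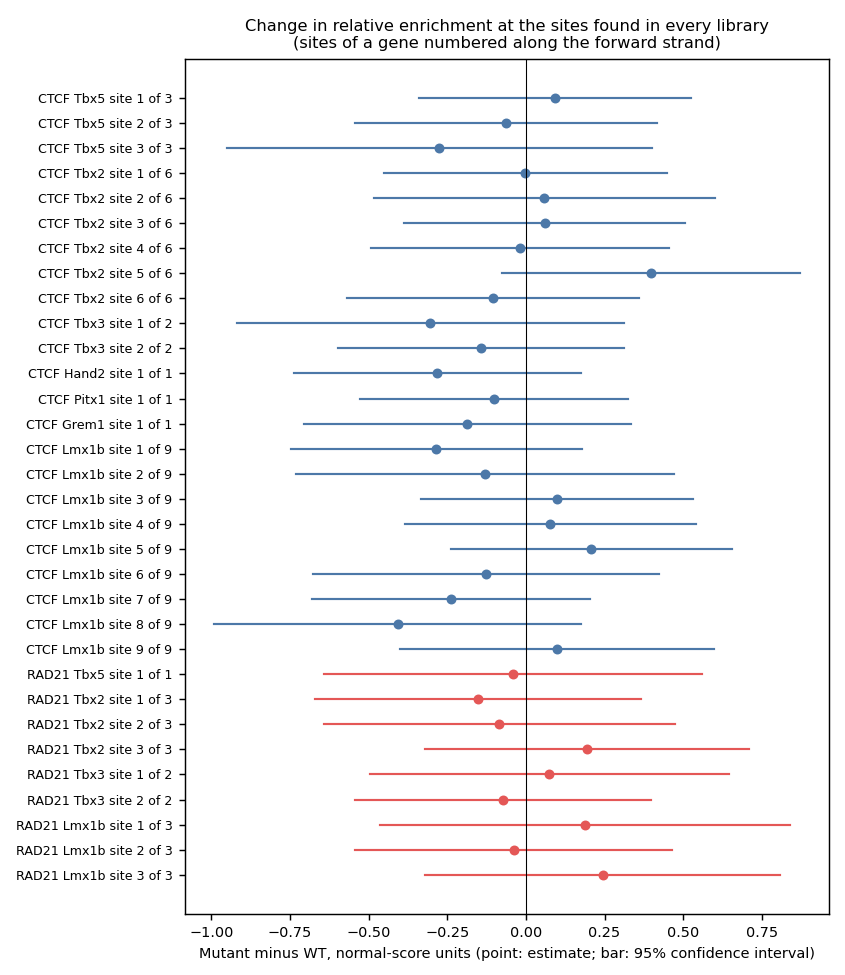
Change between mutant and WT libraries (horizontal axis, normal-score units; point: limma estimate, bar: 95% confidence interval) at the 23 CTCF (blue) and 9 RAD21 (red) sites found in every library, with the sites of a gene numbered along the forward strand. All 32 intervals include 0; the lowest bound is -0.99 (Lmx1b) and the highest 0.87 (Tbx2).

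With the number of mutated HoxD sites as a slope, 0 of 23 CTCF sites passed (background 0%, limma adjusted p), and 2 of 23 reached an unadjusted p of 0.05 (background 2.66%): chr5:119670754 at Tbx3, with a slope of -0.14 ± 0.065 (SE) per mutated site, and chr11:85844816 at Tbx2, with 0.13 ± 0.050, both with a limma adjusted p of 0.9998. CTCF at the Tbx3 site stood at 26.6 and 9.74 in Del(CBS1-4) and 27.2 and 49.3 in Del(CBS1-5), against 32.2 to 71.2 in WT, and at 75.3 in Del(CBS2). At the Tbx2 site the values were 4.42 and 4.66 in Del(CBS1-4) and 1.76 and 7.31 in Del(CBS1-5), against 0.658 to 1.62 in WT. For RAD21 0 of 9 passed in this slope (background 0%) and 0 of 9 did so unadjusted (5.21%).

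Between Del(CBS1-5) and WT, 0 of 23 CTCF sites passed (background 0%; unadjusted 0 of 23, background 1.67%). RAD21 at 0 of 9 sites passed, beside 0.0457% of the genome's sites, and 0 of 9 did so unadjusted, beside 9.73%. Its median change was 0.42 with 7 of 9 above 0, beside 0.01 over all sites, while the largest in size, -0.71 ± 0.42 (SE) at the Tbx5 site chr5:119778036, had a limma adjusted p of 0.588. The 9 sites share the same Del(CBS1-5) libraries, so their directions are not independent. Those RAD21 lists had 26742 and 16676 peaks, the latter the shortest of all, and the part of list length was not tested. Between Del(CBS1) and WT, 0 of 23 CTCF sites passed (background 0%) and 1 of 23 reached an unadjusted p of 0.05 (background 5.49%), the intragenic Tbx5 site chr5:119845288, at -0.74 ± 0.34 (SE) and a limma adjusted p of 0.885. CTCF stood there at 25.5, 4.64 and 9.51 in Del(CBS1), which overlapped the WT range of 23.2 to 47.0. RAD21 gave 0 of 9 adjusted (background 0%) and 0 of 9 unadjusted (background 5.06%) in this comparison. These comparisons share their WT libraries.

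Sites absent from some libraries were covered by an exact 2-sided permutation test of the percentiles over libraries, whose smallest possible p is 0.00275 for CTCF and 0.000549 for RAD21. Adjusted over 83862 CTCF and 49464 RAD21 sites, even that p at a single site cannot fall under 0.05. The adjusted counts of this test therefore could not detect a change confined to a few sites. Near the 9 genes 0 of 61 CTCF sites passed an adjusted p of 0.05 (background 0%), 0 of 61 had an unadjusted p under 0.05 (background 2.23%), and at 0 of 61 did the mutant and WT values not overlap (background 0.123%). For RAD21 the counts were 0 of 28 in each case (backgrounds 0%, 1.77% and 0.0182%). Over the sites found in every library alone, mutant and WT values failed to overlap at 0 of 23 CTCF sites (background 0.145%) and 0 of 9 RAD21 sites (background 0.0457%). Among sites not found in every library, the smallest unadjusted exact permutation p was 0.0907 for CTCF, at chr8:57340934 beside Hand2, and 0.129 for RAD21, at chr8:57333512 beside the same gene, both with an adjusted p of 1. Over all 61 CTCF sites the smallest unadjusted exact permutation p was 0.0824, at chr11:85844816 beside Tbx2. No site was found in all WT libraries and in neither Del(CBS1-5) library. The reverse, a peak in both Del(CBS1-5) and no WT library, occurred for CTCF at chr2:113758545 in Grem1 and chr8:57328685 beside Hand2, both weak, with percentiles of at most 2.25. How often either pattern occurs over all sites of the genome is not given here, so both are a description only.

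A wider list of 33 genes of limb and mesoderm development (among them Fgf10, Gli3, Msx1, Meis1, Isl1 and Shox2) gave 152 CTCF sites in at least 2 libraries, 48 of them (31.6%) in every library, and 107 RAD21 sites, 27 of them (25.2%) in every library. Between mutant and WT libraries 0 of 48 CTCF and 0 of 27 RAD21 sites passed an adjusted p of 0.05 in limma (background 0% for both). At an unadjusted p of 0.05 there was 1 of 48 for CTCF (background 1.84%), at chr12:33953026 beside Twist1, a basic helix-loop-helix factor of the limb mesenchyme (-0.54 ± 0.26, SE; limma adjusted p = 0.9999), and 1 of 27 for RAD21 (background 2.76%), at chr2:168765128 beside Sall4, a zinc finger factor of limb outgrowth (0.62 ± 0.28, SE; limma adjusted p = 0.9996). Both counts were near the background. Across the 14 CTCF libraries, the mean normal score of the 23 sites was most like that of Foxf1, a forkhead factor of the lateral plate (r = 0.627 over its 2 sites), then Twist1 (0.407) and Irx3 (0.398). Over the 29 genes compared r went down to -0.485 (Isl1) and was below 0 for 8; these values are a description of libraries that also share their list lengths.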

How the data were processed

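CTCF and RAD21 ChIPmentation peak lists of 30 libraries were analysed, 1 list per library, on mm10. Per the submitters' processing notes the authors used MACS2 2.1.1.20160309, cutadapt 1.16, Picard 2.19.0, Bowtie2 2.3.5, bedtools 2.27.1 and SAMtools 1.9; whether an input control was used is not given in the sources used here. Each deposited list gives per peak a score for display, the fold enrichment of the summit over local background (a ratio), a -log10 p-value and a -log10 q-value from the authors' caller, and the summit's offset from the peak start. Because peaks were called per library, fold enrichments served only for ranking inside a library and for description.

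Genes were taken from the RefSeq spans of GRCm38.p6, which carry no exons and, for Tbx5, Tbx2, Tbx3 and Pitx1, no strand; for these both ends of the span were treated as possible starts. Exons, introns and motifs outside the promoter table were not analysed here. Summits within 150 bp were linked into sites, and sites were joined to a gene within 20 kb. Sites found in every library were tested with limma 3.58.1 in R 4.3.3 (robust, with trend; statmod 1.5.0) on normal scores of ranks, and all sites in at least 2 libraries by exact permutation over libraries in Python 3.11.15 (scipy 1.17.1), with Benjamini-Hochberg adjustment over all sites. A genotype with a single library borrows the spread of the other genotypes. The limma code was tested on simulated data with normal noise of the same spread at every site. For each antibody, 50 sites were shifted by each size (0.5, 1, 1.5 and 2), all in the same simulated data. Between mutant and WT, a planted shift of 0.5 was called at 8% of CTCF and 2% of RAD21 sites. A shift of 1 was called at 46% and 64%, and a shift of 1.5 at 98% and 96%. Shifts of 0.5 would thus mostly be missed. Many true shifts together make the adjusted threshold easier to pass. A shift confined to a few sites would therefore be called less often than these shares, by an amount not measured here. Named sites were those found in every library, the strongest WT site of each gene and antibody, sites within 1 kb of a gene's start, the 3 sites per antibody with the smallest p among the remaining ones, and sites in all WT and no Del(CBS1-5) library or the reverse. The members and lists were chosen with earlier results of these data known. Each embryo was dissociated individually per the labels, so libraries were taken as separate embryos.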

Additional observations from a re-analysis of the deposited data

Results flagged for a closer look

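RAD21 at chr2:33542863, at the strongest CTCF site below Lmx1b, had 1 WT library far from the other 3. WT replicate 1 stood at a percentile of 22.6, and the others at 1.45, 1.53 and 3.46. The gap to the nearest was 0.905 of the range, above Dixon's critical value of 0.829 for 4 samples; 9 groups were tested, and chance marks about 1 in 20. Mutant libraries ranged from 0.365 to 22.2 at this site.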

How the results depend on the processing

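No site near the 9 genes passed an adjusted p of 0.05 in any comparison under any alternative run (22 per CTCF and 25 per RAD21 limma comparison, 19 and 22 for the permutation tests), including the fit with the replicate block (0 called) and the omission in turn of each library of a genotype with at least 2 (0 in each). The permutation runs could not have passed a few sites alone, so their counts of 0 add nothing to the limma ones. Over the genome, CTCF calls between Del(CBS1) and WT went from 0 to 20 without Del(CBS1) replicate 1, and RAD21 calls between Del(CBS1-5) and WT from 6 to 171 without Del(CBS1-5) replicate 1, to 0 without its replicate 2 or with the replicate block, and to 13 with ranks of the -log10 p. Of 285 alternative values at the 32 tested sites, 30 at 19 sites had the other sign, and 0 passed the threshold. The number of sites depended on the peaks admitted: the 61 CTCF sites became 39 with a -log10 q of at least 10, 40 with equal numbers of top peaks and 35 within 5 kb, and the 28 RAD21 sites became 12, 12 and 15. The share of CTCF sites in every library rose from 37.7% to 57.5% with equal numbers of top peaks. Leaving out 1 such library at a time gave 57 to 61 CTCF sites (shares 37.7% to 40.7%) and 26 to 28 RAD21 sites (32.1% to 34.6%). RAD21 cover of the 61 CTCF sites ranged from 30.8% to 45.9% (reported value 41.0%). With a -log10 q of at least 10, an alternative chosen after seeing the data, RAD21 was listed in 7 of 16 libraries at the strongest Lmx1b site and in 16 of 16 at the Tbx3os2 promoter and at chr11:85844816. Same-numbered libraries did not deviate together (CTCF r from -0.268 to 0.281, RAD21 from -0.187 to 0.274; 5 of 12 and 4 of 15 were most like their own number), so the numbers were not taken as pairs. The number of libraries and unknown depth limit what could be seen.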
